A study of Mus musculus with 4 samples.

Results

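The 5 genes of the NF-kB transcription factor subunits (Nfkb1, Nfkb2, Rel, Rela and Relb) and 5 genes of the IkB family that hold or steer them (Nfkbia, Nfkbib, Nfkbie, Nfkbiz and Bcl3) were followed in mouse liver after hepatic deletion of Ubc13. The members were taken by symbol, and all 10 were found among the 56953 gene rows of the count table. Ubc13, the protein of Ube2n, is a ubiquitin-conjugating enzyme that builds signalling chains upstream of NF-kB. The deletion group was Ubc13 flox/flox Alb positive (labelled hepatic Ubc13 deletion) and the control group was Ubc13 flox/flox Alb negative (labelled WT). Each group held 2 liver libraries from mice 2 months old on a normal diet. Alb positive is read here as carrying albumin-Cre, whose promoter acts in hepatocytes, so the other liver cells are taken to keep Ubc13. All libraries carried the loxP-flanked alleles. The labels do not say that the replicates were separate animals, so p-values measure the spread between these libraries, which may be in part technical.

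NF-kB acts as dimers. In the canonical arm, signals from cytokine and microbial receptors activate the IkB kinase, IkB proteins are destroyed, and dimers of p50 (from Nfkb1), RelA and c-Rel enter the nucleus. In the non-canonical arm, the kinase NIK (Map3k14) drives the cutting of p100 (Nfkb2) to p52, which pairs with RelB. Nfkb2, Relb and Nfkbia are themselves known NF-kB targets, and in liver the canonical arm is known for protecting hepatocytes from death signals and for driving acute phase genes.

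Total counts lay between 16270424 and 17800138 per library. Ube2n had 5.88 and 5.97 CPM (counts scaled to the TMM-adjusted library size) in deletion replicates 1 and 2, against 41.3 and 44.9 CPM in control replicates 1 and 2. It fell by 2.86 on the log2 scale (SE 0.16, edgeR adjusted p = 0.00188). The defining hepatocyte marker Alb was present, at 45310 and 42886 CPM in the deletion libraries and 119049 and 114960 CPM in the controls. The libraries also differed in sex-linked RNA. Xist had 9590 and 3896 counts in deletion replicates 1 and 2, against 9 and 2 counts in the controls, and 4 Y-linked genes had 0 counts in deletion replicate 1, 206 to 719 in deletion replicate 2 and 216 to 1027 in the controls. This difference separates deletion replicate 1 from the other 3 libraries by Y-linked counts and both deletion libraries from the controls by Xist. Xist thus differed along with genotype, so a difference of sex and the deletion cannot be told apart. Deletion replicate 2 held both Xist and Y-linked RNA, and how this came about was not tested. Its Y-linked share was 0.772 of the control mean, or 0.613 by TMM-scaled CPM. Xist had 527 and 200 CPM in deletion replicates 1 and 2, against 0.555 and 0.137 CPM in the controls. A covariate built from Y-linked RNA thus runs in part along with the Xist difference. How far it adjusts for that difference was not tested. Calls of the members and of the named pathway genes that end without deletion replicate 1, or with the Y-linked share as a covariate, are marked beside them.

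The non-canonical subunits Nfkb2 and Relb and the nuclear IkB-like gene Bcl3 rose in the deletion livers, and no member of the canonical arm passed the test. All 10 members passed the filter on low counts, with 25 to 1678 counts in every library. At an adjusted p under 0.05 over the 14600 genes tested, 3 of the 10 members rose, where 4.41% of all genes tested rose. None fell (0 members), where 2.16% of all genes tested fell. At an unadjusted p under 0.05, 6 members were higher and 0 lower, and the share of all genes at that threshold was not taken. DESeq2 called 4 members higher and 0 lower, and limma-voom 1 and 0. Over all genes and both directions, DESeq2 called 1568 and limma-voom 914, beside 959 with edgeR. The median log2 fold change of the members was 0.72, beside -0.0036 over all genes tested. In 8 of the 10 both deletion libraries lay above both controls, which held for 28.7% of all genes tested.

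**Figure D1:**
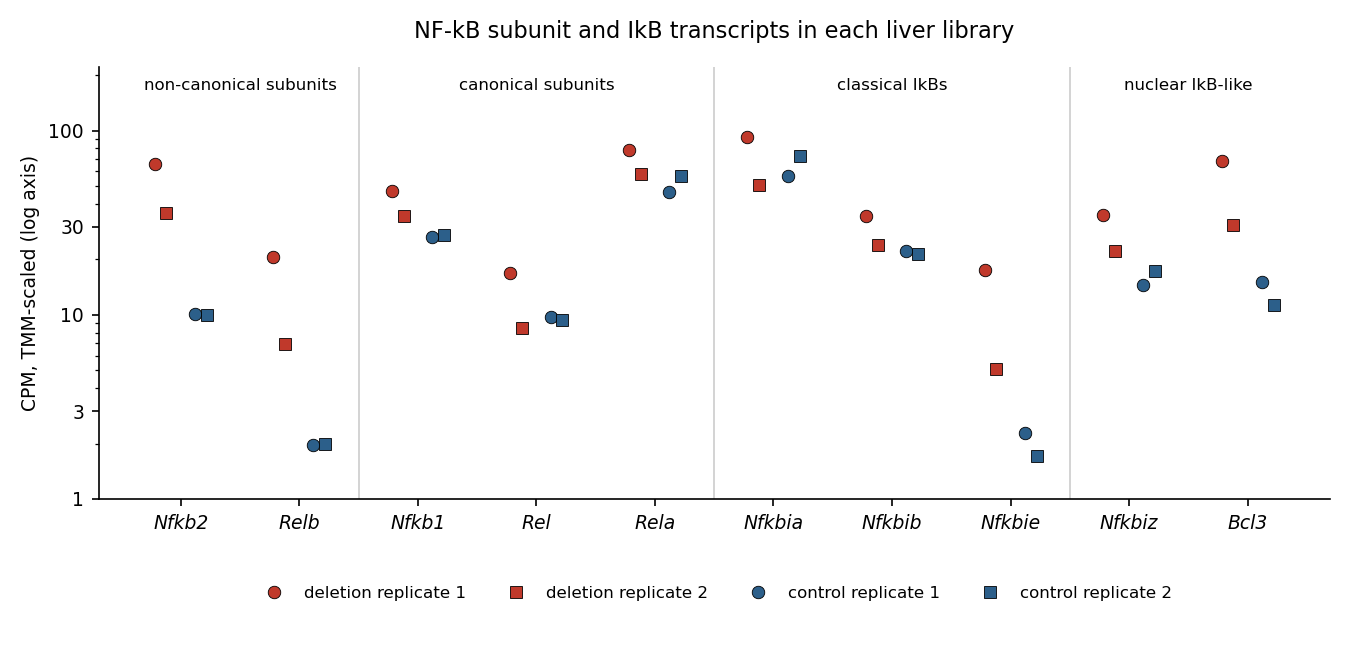
Level of each NF-kB subunit and IkB gene (TMM-scaled CPM, log axis) in the 2 deletion libraries (red) and the 2 control libraries (blue), with circles for replicate 1 and squares for replicate 2. The 2 controls nearly coincide for Nfkb2 and Relb and lie far below both deletion libraries, while Rel and Nfkbia overlap between the groups.

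Nfkb2 encodes p100, which both holds RelB back as an IkB-like protein and yields the p52 subunit when cut. It lies at chr19:46304320-46312385 on the plus strand (GRCm38). Nfkb2 had 65.6 and 35.6 CPM in deletion replicates 1 and 2, against 10.1 and 9.96 CPM in control replicates 1 and 2, from 1194, 692, 163 and 145 counts. The lower deletion library was still more than 3 times the higher control. The rise was 5.05-fold (log2 fold change 2.34 ± 0.31 SE, edgeR adjusted p = 0.0137, higher in 2 of 2 deletion libraries). It was called with any 1 library left out, at 1.82 to 2.71 on the log2 scale, and by DESeq2 (2.7e-10) and limma-voom (0.0231). Some Nfkb2 transcripts run into the 3′ end of Psd on the other strand, the longest over 299 bases (chr19:46312087-46312385). The strand setting of the counting is not given in the sources used here. Psd had 303 and 74 counts in the deletion libraries and 43 and 32 in the controls (log2 fold change 2.07 ± 0.68, adjusted p = 0.134). Summing the counts of both genes, which was added once the data had been seen, gave a log2 fold change of 2.29 (adjusted p = 0.0208).

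Relb, the DNA-binding partner of p52, had the lowest CPM of the subunits in the controls and the highest fold change of the members. The gene lies at chr7:19606217-19629438 on the minus strand. Relb had 20.7 and 6.90 CPM in deletion replicates 1 and 2, against 1.97 and 1.99 CPM in control replicates 1 and 2, from 376, 134, 32 and 29 counts. Both deletion libraries were above both controls, and deletion replicate 1 held 3 times the level of deletion replicate 2. It rose 6.92-fold (log2 fold change 2.79 ± 0.55 SE, edgeR adjusted p = 0.0406, higher in 2 of 2 deletion libraries). It was no longer called once deletion replicate 1 was left out (log2 fold change 1.78, adjusted p = 0.085), with robust fitting (0.0503), with limma-voom (0.111) and with the Y-linked share as a covariate (1.33, 0.202). DESeq2 and the fits without deletion replicate 2 or either control kept it.

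Sequence around the starts of the members is shown because NF-kB is known to act on the promoters of several of its own genes. RefSeq promoter windows on GRCm38.p6, from 250 bases before to 50 after a start, were used for 7 of the 10 members (9 windows, 3 of them for Nfkb2), and none was used for Nfkb1, Relb and Nfkbiz. The kB consensus, searched on both strands, matched in 5 of the 7 genes, namely Nfkb2, Rel, Nfkbia, Nfkbie and Bcl3, and not in Rela and Nfkbib. Over all genes in that table, 5.14% of 27025 genes and 4.51% of 32851 windows of the same length held a match. The looser frame GGGNNNNNCC, which every consensus match also meets, was held by 6 of the 7 members and by 53.5% of all genes. Nfkb2 had matches in each of its windows, though the only match of the third window is the site at position 11 of the second start. Of the matches, 3 are shown here 5′ to 3′ on the gene's strand with the matched letters in capitals. They lie at positions -39 (chr19:46304688-46304717) and -11 (chr19:46304716-46304745) of the first start and at 11 of the second (chr19:46305695-46305724), where -1 is the base before the start.
Nfkb2, position -39: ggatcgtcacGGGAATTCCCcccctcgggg
Nfkb2, position -11: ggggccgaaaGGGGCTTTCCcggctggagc
Nfkb2, position 11: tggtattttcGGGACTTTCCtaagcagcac
A match says that these letters are present, and nothing about binding in these livers. In the same windows, genes with a match included Nfkb2, which rose, and Rel and Nfkbia, which did not pass the test.

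No canonical subunit passed the test, and Rel overlapped between the groups. RelA, the main activating subunit in most cells, comes from Rela (chr19:5637483-5648130, plus strand). Rela had 78.5 and 58.2 CPM in deletion replicates 1 and 2, against 46.1 and 56.5 CPM in control replicates 1 and 2. The groups were separated only by the small gap between deletion replicate 2 and control replicate 2, and at a log2 fold change of 0.41 ± 0.20 Rela was not called (edgeR adjusted p = 0.279). Nfkb1 (chr3:135584655-135691547, minus strand) encodes p105, the source of p50. Nfkb1 had 47.2 and 34.3 CPM in the deletion libraries, against 26.6 and 26.9 CPM in the controls, so that the groups did not overlap. At a log2 fold change of 0.61 ± 0.19 it was not called (edgeR adjusted p = 0.123), but it was without a filter on low counts (0.0242) and with library sizes alone as scaling (0.0319). Rel, known chiefly as the c-Rel subunit of lymphocytes and myeloid cells, lies at chr11:23736847-23770970 on the minus strand. Rel had 16.9 and 8.49 CPM in deletion replicates 1 and 2, against 9.69 and 9.41 CPM in control replicates 1 and 2. Deletion replicate 2 was below both controls, the groups overlapped, and the log2 fold change was 0.41 ± 0.34 (adjusted p = 0.521), or -0.18 without deletion replicate 1.

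**Figure D2:**
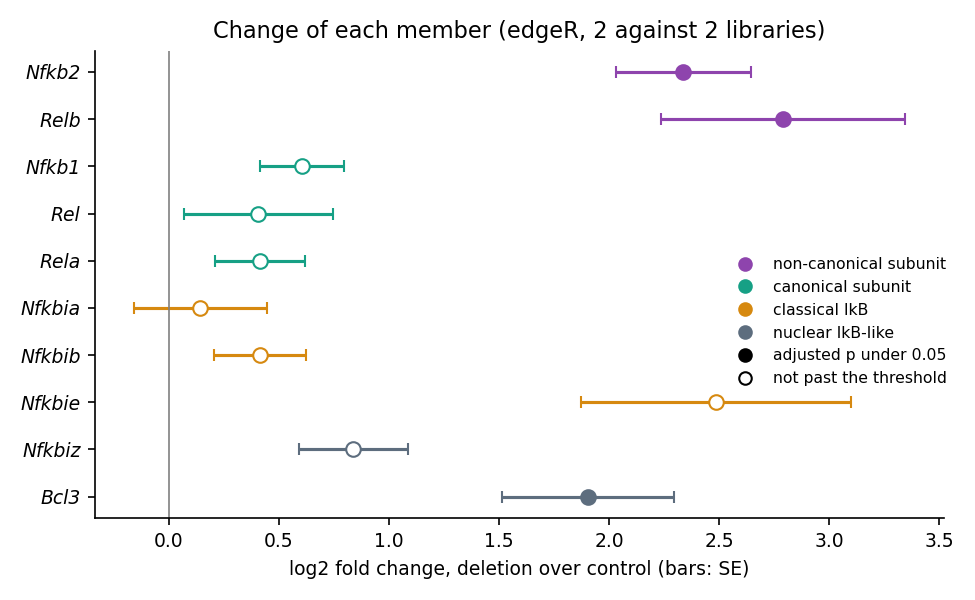
Log2 fold change of each member, deletion over control, from the edgeR fit across all genes (points, with SE as bars; filled where the adjusted p was under 0.05). Nfkb2, Relb and Bcl3 are filled at 2.34, 2.79 and 1.91, Nfkbie stands open at 2.49 with a wide bar, and the canonical subunits lie between 0.41 and 0.61.

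The balance between the subunit transcripts of the arms was compared within each library, where scaling cancels. This is a balance of RNA only, and protein levels, p100 cutting and the activity of either arm were not measured. These libraries read 1 stretch per transcript near its 3′ end, so a ratio of counts does not depend on transcript length, but it may depend on how well each end was read, and only its change between libraries is used. Nfkb2 per Nfkb1 count was 1.39 and 1.04 in deletion replicates 1 and 2, against 0.378 and 0.370 in control replicates 1 and 2. Nfkb2 counts thus exceeded Nfkb1 counts in both deletion libraries and in neither control, with group means of 1.21 ± 0.25 and 0.374 ± 0.006 (SD, n = 2 each). Relb per Rela count was 0.263 and 0.119 in the deletion libraries, against 0.0428 and 0.0352 in the controls. That ratio was 4.89 times higher on average in the deletion group, although deletion replicate 1 had more than double the ratio of deletion replicate 2.

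As a single measure, the mean log2 CPM of Nfkb2 and Relb minus that of Nfkb1, Rela and Rel was -0.11 and -0.71 in deletion replicates 1 and 2, against -2.32 and -2.41 in control replicates 1 and 2. The group means were -0.41 ± 0.42 and -2.36 ± 0.06 (SD, n = 2 each), a difference of 1.95, and both deletion libraries stood above both controls. No test was run on it, because 2 against 2 libraries allow no exact two-sided permutation p under 0.333, and because the genes were picked with results known. Leaving out deletion replicate 1 gave 1.65, leaving out deletion replicate 2 gave 2.25, and leaving out Rel gave 1.90. Under all 15 alternative fits tried on the members, the lower of the Nfkb2 and Relb log2 fold changes stayed above the highest of Nfkb1, Rela and Rel.

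**Figure D3:**
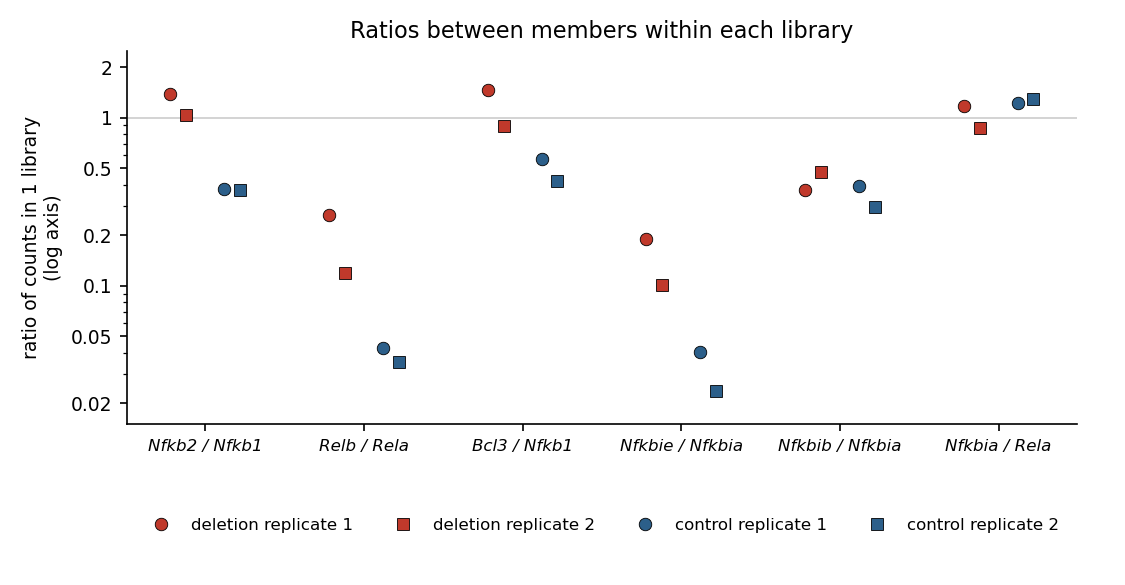
Ratios of counts between pairs of members within each library (log axis), with deletion libraries in red to the left of control libraries in blue. Nfkb2 per Nfkb1, Relb per Rela and Nfkbie per Nfkbia are higher in both deletion libraries than in both controls, while Nfkbib per Nfkbia overlaps between the groups.

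The 3 classical IkB genes did not move together. IkBα, the product of Nfkbia (chr12:55489410-55492647, minus strand), is the quick feedback inhibitor of RelA dimers. Nfkbia had 92.2 and 50.4 CPM in deletion replicates 1 and 2, against 56.4 and 72.7 CPM in control replicates 1 and 2. One deletion library was the highest and the other the lowest of all 4, so the groups overlapped (log2 fold change 0.14 ± 0.30, edgeR adjusted p = 0.823; -0.37 without deletion replicate 1). Nfkbib (chr7:28758251-28767512, minus strand) encodes IkBβ, a slower inhibitor. Nfkbib had 34.3 and 23.9 CPM in the deletion libraries, against 22.2 and 21.4 CPM in the controls, and at 0.42 ± 0.21 on the log2 scale it was not called (adjusted p = 0.286). It overlaps Sirt2 on the other strand by 778 bases at its own start, and Sirt2 had 973 and 984 counts in the deletion libraries and 890 and 965 in the controls.

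Nfkbie (chr17:45555703-45563169, plus strand) encodes IkBε, a late feedback inhibitor known from B cells and other leukocytes. Nfkbie had 17.5 and 5.09 CPM in deletion replicates 1 and 2, against 2.28 and 1.72 CPM in control replicates 1 and 2, from 318, 99, 37 and 25 counts. Both deletion libraries were above both controls, with more than a 3-fold gap between them. At a log2 fold change of 2.49 ± 0.61 it missed the threshold (edgeR adjusted p = 0.0694). DESeq2 called it (0.000499), as did the fits without deletion replicate 2 (0.0136), control replicate 1 (0.00836) or control replicate 2 (0.0128), while without deletion replicate 1 it was 1.33 (adjusted p = 0.219). Nfkbie per Nfkbia count was 0.190 and 0.101 in the deletion libraries, against 0.0404 and 0.0236 in the controls. That ratio was 4.54 times higher on average in the deletion group. Nfkbib per Nfkbia count was 0.372 and 0.474 in the deletion libraries and 0.393 and 0.295 in the controls, which overlapped.

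The promoters of Nfkbia and Nfkbie are set side by side because both hold 1 kB match and their transcripts differed in this way. The 250 bases before each RefSeq start lie at chr12:55492648-55492897 (minus strand) and chr17:45555450-45555699 (plus strand) of GRCm38.p6, and the matched letters are in capitals, beginning at positions -29 and -106.
Nfkbia: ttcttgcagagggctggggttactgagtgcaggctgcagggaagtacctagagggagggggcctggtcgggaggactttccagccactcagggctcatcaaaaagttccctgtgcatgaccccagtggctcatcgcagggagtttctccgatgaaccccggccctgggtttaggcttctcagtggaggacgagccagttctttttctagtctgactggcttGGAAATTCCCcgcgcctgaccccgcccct
Nfkbie: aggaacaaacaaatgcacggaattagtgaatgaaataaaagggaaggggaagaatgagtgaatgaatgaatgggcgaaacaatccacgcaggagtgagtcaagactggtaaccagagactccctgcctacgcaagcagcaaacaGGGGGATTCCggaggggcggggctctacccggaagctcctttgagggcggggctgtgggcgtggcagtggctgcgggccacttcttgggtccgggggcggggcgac
The Nfkbia match reads as the consensus on the opposite strand and the Nfkbie match on the gene's own strand.

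The nuclear IkB-like genes both were higher in the deletion libraries, and Bcl3 passed the test. Bcl3 protein binds p50 and p52 dimers on DNA and can turn them into activators. Bcl3 (chr7:19808462-19822770, minus strand) had 68.4 and 30.8 CPM in deletion replicates 1 and 2, against 15.1 and 11.3 CPM in control replicates 1 and 2. The groups did not overlap, and the rise was 3.75-fold (log2 fold change 1.91 ± 0.39, edgeR adjusted p = 0.0435, higher in 2 of 2 deletion libraries). The Bcl3 call ended when deletion replicate 1 was left out (1.21, adjusted p = 0.0647), under robust fitting (0.0697) and in limma-voom (0.0647). Bcl3 per Nfkb2 count was 1.04 and 0.866 in the deletion libraries and 1.5 and 1.14 in the controls, so that Bcl3 rose no more than Nfkb2 did. Its kB match starts at position 3 (chr7:19822734-19822763, minus strand).
Bcl3, position 3: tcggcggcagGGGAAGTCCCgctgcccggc
Nfkbiz (chr16:55811375-55838899, minus strand) encodes IkBζ, a co-activator of secondary response genes. Nfkbiz had 34.9 and 22.2 CPM in the deletion libraries, against 14.6 and 17.4 CPM in the controls, with no overlap, and at 0.84 ± 0.25 on the log2 scale it was not called (edgeR adjusted p = 0.107). It passed without control replicate 2 (0.0290), without a filter on low counts (0.000958) and with library sizes alone (0.0339).

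The spread within the deletion group was itself shared by the members. All 10 were higher in deletion replicate 1 than in deletion replicate 2, by 1.35-fold (Rela) to 3.43-fold (Nfkbie) with a median of 1.84, where 49.4% of all genes tested were higher in replicate 1 and the median over all of them was 0.997. Between the controls 5 of the 10 were higher in replicate 1 (median ratio 1.00). Against the control mean, Nfkb2 stood at 6.56 times in deletion replicate 1 and 3.56 times in deletion replicate 2. Relb stood at 10.4 and 3.48 times, Nfkbie at 8.74 and 2.55 times and Bcl3 at 5.17 and 2.33 times, while Rel and Nfkbia stood at 1.77 and 1.43 times in deletion replicate 1 and at 0.889 and 0.780 times in deletion replicate 2. With the Y-linked share of each library as a covariate, which leaves 1 residual degree of freedom fewer, Nfkb2 kept its call (log2 fold change 1.57, edgeR adjusted p = 0.0354) and Bcl3 did not (0.87, 0.217). With the same covariate built from TMM-scaled CPM, chosen after seeing the data, Nfkb2 was at 1.28 and lost its call (adjusted p = 0.215), and 0 of 10 members were called.

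**Figure D4:**
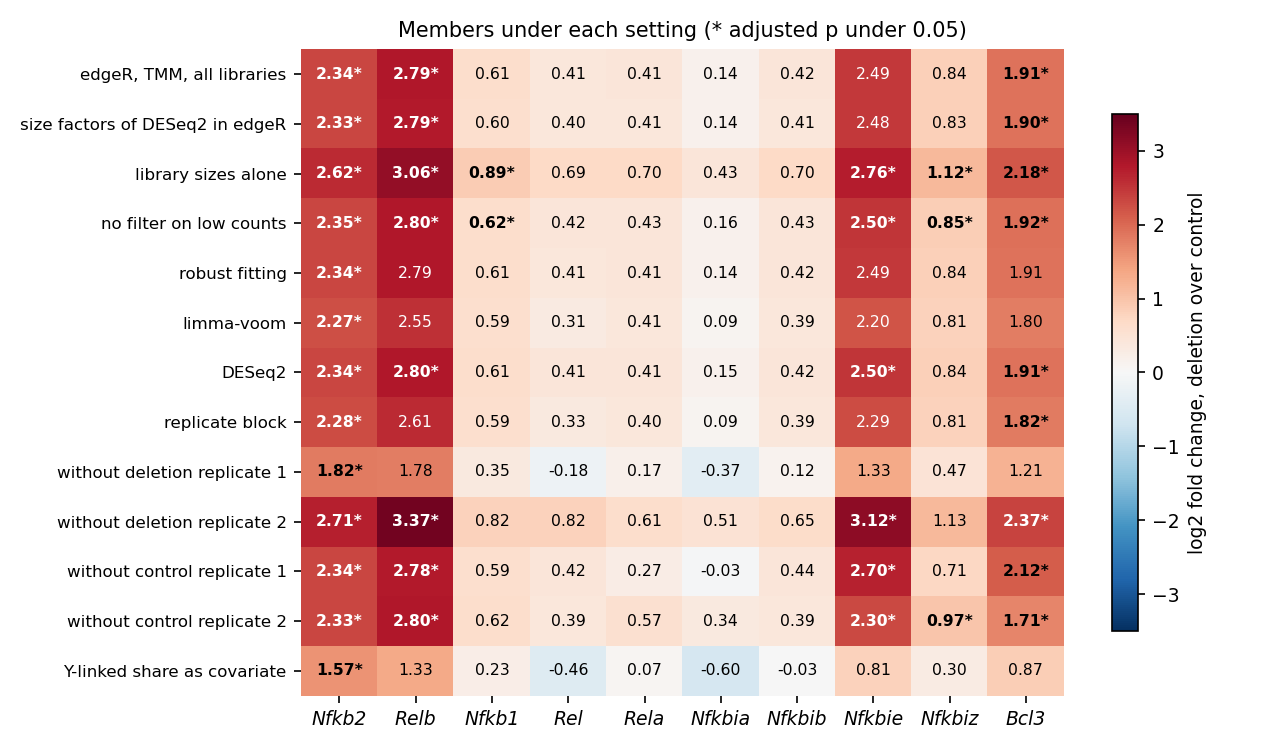
Log2 fold change of each member, deletion over control (colour and number), in the main fit and under 12 alternatives, with a star where the adjusted p was under 0.05. The fit with TMM-scaled Y-linked CPM as a covariate, where Nfkb2 was not called (log2 fold change 1.28, edgeR adjusted p = 0.215), is not shown. Nfkb2 carries a star in every line shown, whereas Rel and Nfkbia turn negative without deletion replicate 1 and with the Y-linked covariate. Nfkbia also turns negative without control replicate 1, and Nfkbib with the Y-linked covariate (-0.026).

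In whole liver, a change in the number of cells of a type and a change of RNA per cell cannot be told apart, and Relb, Rel, Nfkbie and Nfkb2 are all expressed by leukocytes. The 10 pan-leukocyte markers summed to 265 and 234 CPM in deletion replicates 1 and 2, against 166 and 182 CPM in control replicates 1 and 2, 1.43 times higher. In that list 0 of 10 markers passed (5 higher and 0 lower at an unadjusted p under 0.05). The 10 Kupffer cell markers summed to 948 and 759 CPM, against 459 and 649 CPM in the controls, and 1 of them rose, the scavenger receptor family gene Cd5l (adjusted p = 0.0499). The 10 monocyte and macrophage markers summed to 378 and 448 CPM, against 95.6 and 98.4 CPM, 4.25 times higher, and 5 of them rose. At an unadjusted p under 0.05, 8 of these 10 were higher and 0 lower, and DESeq2 called 5 higher and 0 lower. Cybb and Cd9 held most of the sum in the deletion libraries but not in the controls. Like the members, the pan-leukocyte and Kupffer cell sums were higher in deletion replicate 1 than in deletion replicate 2, while the monocyte and macrophage sum was higher in deletion replicate 2. Parenchymal markers moved as well: the 9 tested hepatocyte markers summed to 65664 and 62274 CPM in the deletion libraries, against 151644 and 145372 CPM in the controls, and 1 of them fell. At an unadjusted p under 0.05, 0 of them were higher and 6 lower, and DESeq2 called 0 higher and 6 lower. Their median log2 fold change was -0.70, and Alb made up most of the sum in every library. Of 9 tested bile duct cell markers, Spp1 and Sox9 rose, 0 fell, 4 were positive and the median log2 fold change was -0.77. Spp1 alone, at 1327 and 1916 CPM in the deletion libraries and 50.4 and 52.5 CPM in the controls, made up most of their sum of 1372 and 1973 CPM, against 150 and 78.2 CPM. The duct keratin Krt19 had 53 and 77 counts in the deletion libraries, against 635 and 47 counts in control replicates 1 and 2, so that control replicate 1 stood apart.

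Markers of lymphoid, dendritic and neutrophil lineages had low sums. The B cell markers summed to 10.3 and 8.54 CPM in the deletion libraries, against 8.02 and 10.5 CPM in the controls. Dendritic cell markers summed to 19.1 and 19.3 CPM, against 16.7 and 21.4 CPM, and T and NK cell markers to 10.8 and 7.05 CPM, against 5.18 and 7.42 CPM. Neutrophil markers summed to 9.84 and 9.16 CPM, against 2.34 and 5.29 CPM, and the defining neutrophil marker Ly6g had 0 counts in every library. These sums stand beside rises of 5.05-fold in Nfkb2 and 6.92-fold in Relb, and the part of leukocytes in them was not tested.

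Genes listed as non-canonical input, which both feed and restrain that arm, contained called rises, while the kinase complexes contained none. Of 16 listed genes of non-canonical input, 11 were tested, 4 rose and 0 fell, with a median log2 fold change of 1.14. At an unadjusted p under 0.05, 8 were higher and 0 lower, and DESeq2 called 5 higher and 0 lower. NIK (Map3k14), the kinase that starts p100 cutting, had 14.3 and 10.04 CPM in deletion replicates 1 and 2, against 3.58 and 3.37 CPM in control replicates 1 and 2 (log2 fold change 1.81 ± 0.28, edgeR adjusted p = 0.0203). Of the complex that degrades NIK, Traf3 rose to 32.5 and 24.7 CPM, against 9.56 and 14.7 CPM in the controls, and Birc3 to 33.2 and 21.7 CPM, against 12.3 and 12.3 CPM. Its other genes Traf2 and Birc2, named after their values were seen, stood at log2 fold changes of 0.81 ± 0.23 and 0.72 ± 0.26 and were not called (edgeR adjusted p = 0.0931 and 0.162). Tnfrsf12a, the TWEAK receptor, had 56.8 and 57.0 CPM in the deletion libraries, against 7.16 and 12.6 CPM in the controls, and rose by 2.53 ± 0.28 on the log2 scale (adjusted p = 0.00834). Its level was nearly equal in both deletion libraries, and it kept its call with any 1 library left out. Leaving out deletion replicate 1 ended the calls of Map3k14, Traf3 and Birc3 (edgeR adjusted p = 0.0762, 0.158 and 0.147), and leaving out deletion replicate 2 that of Traf3 (0.0854). With the Y-linked covariate these 3 were not called either (0.176, 0.303 and 0.337), nor was Birc3 in limma-voom (0.0606), while Tnfrsf12a was called with the covariate (0.0321). With the TMM-scaled form of the covariate Tnfrsf12a was not called (edgeR adjusted p = 0.132).

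The IkB kinase and its activator did not pass in either direction. Ikbkb, the catalytic subunit of the canonical arm, had 64.8 and 59.1 CPM in the deletion libraries, against 62.2 and 66.2 CPM in the controls (log2 fold change -0.05 ± 0.15, edgeR adjusted p = 0.873). Chuk, the catalytic subunit needed in the non-canonical arm, had 85.9 and 72.1 CPM, against 113 and 101 CPM (-0.44 ± 0.16, adjusted p = 0.17). The scaffold NEMO (Ikbkg) stood at 0.65 ± 0.16 (adjusted p = 0.0717; DESeq2 0.0320) and the kinase TAK1 (Map3k7) at -0.36 ± 0.14 (0.184). Of 9 genes of both complexes 0 were called by edgeR, with 1 higher and 2 lower at an unadjusted p under 0.05, and DESeq2 called 1 higher and limma-voom 0. In the list of IkB degradation and p100/p105 processing, 0 of 8 passed with edgeR, 1 was higher at an unadjusted p under 0.05 and 0 passed with limma-voom. Its ubiquitin ligase subunit Btrc had 12.4 and 22.03 CPM in the deletion libraries, against 16.8 and 10.1 CPM in the controls, which overlapped.

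Canonical input and feedback genes were mixed. Of 15 tested input genes 2 rose, the microbial pattern receptors Cd14 and Tlr2 (log2 fold changes 4.38 ± 0.35 and 2.86 ± 0.58), and 1 fell, the interleukin receptor chain Il1rap (-1.43 ± 0.17), with edgeR adjusted p of 0.00406, 0.0424 and 0.0103. The list's median was 0.22. Tlr2 was not called without deletion replicate 1 (0.101), nor Il1rap without deletion replicate 2 (0.0594). Neither was called with the Y-linked covariate (Tlr2 0.228, Il1rap 0.0639), and Tlr2 was not called under robust fitting (0.0690) or in limma-voom (0.0897). Among 13 tested genes that end NF-kB signalling, DESeq2 called 4 higher and 0 lower, while 2 rose and 0 fell with edgeR. These were Tnip1, a partner of A20, at 1.66 ± 0.19 (adjusted p = 0.00973), and the deubiquitinase Otud7b at 0.82 ± 0.17 (0.0470), which was called in 1 of 4 fits with a library left out. With the Y-linked covariate neither was called (edgeR adjusted p = 0.0717 for Tnip1 and 0.388 for Otud7b). A20 itself (Tnfaip3) had 59.1 and 13.5 CPM in deletion replicates 1 and 2, against 5.06 and 3.30 CPM in control replicates 1 and 2. Like Nfkbie, its groups were apart and its spread wide (3.11 ± 0.70, adjusted p = 0.0568), and it was called without deletion replicate 2 or without either control. The remaining IkB-like genes Nfkbid and Nfkbil1 stood at 1.31 ± 0.63 and 0.11 ± 0.25 and did not pass (adjusted p = 0.266 and 0.833), with 0 called by DESeq2 and 0 at an unadjusted p under 0.05. None of 8 tested nuclear partners passed with edgeR (0), DESeq2 (0) or at an unadjusted p under 0.05 (0).

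**Figure D5:**
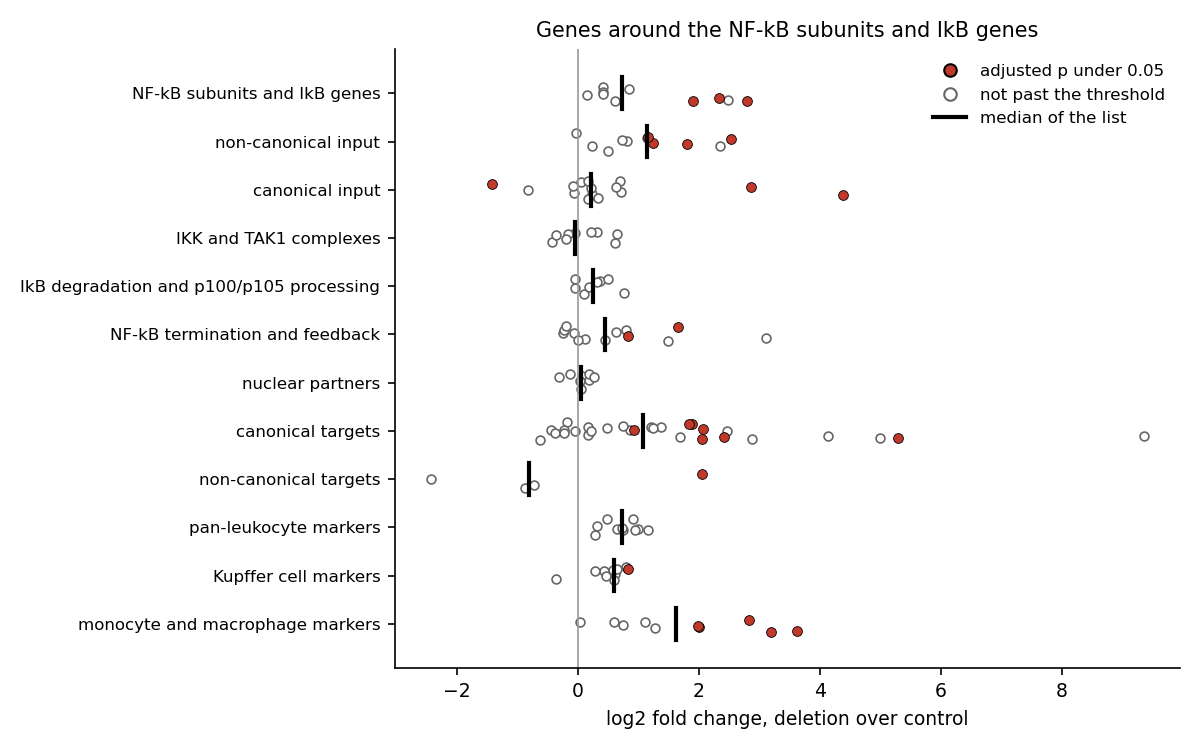
Log2 fold change of every tested gene, deletion over control, in lists around the NF-kB subunits and IkB genes and in 3 marker lists (filled where the adjusted p was under 0.05; black bars are list medians). The medians are 1.14 for non-canonical input, -0.05 for the kinase complexes, 1.07 for canonical targets and -0.81 for non-canonical targets; the point above 9 is Nos2, which had 0 control counts, so its place is a fitted value and no bound.

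Transcripts known as targets of the canonical arm rose in part. Of the targets listed for the non-canonical arm 1 rose, while the median log2 fold change of that list was -0.81. Of 40 canonical targets 30 were tested, 7 rose and 0 fell, and the median log2 fold change was 1.07, also with Nos2 at its bound. At an unadjusted p under 0.05, 17 were higher and 1 lower, and DESeq2 called 15 higher and 1 lower. Of the called targets, those with the highest fold changes were Lcn2, an iron-binding acute phase protein (5.29 ± 0.27), the chemokines Cxcl9 (2.41 ± 0.26) and Cxcl16 (1.88 ± 0.21), the early response gene Ier3 (2.06 ± 0.40) and the adhesion molecule Icam1 (2.04 ± 0.38), with edgeR adjusted p from 0.00188 to 0.0379. Ier3 lost its call without deletion replicate 1 (0.158) or 2 (0.0949). With the Y-linked covariate Cxcl16 (0.0614), Ier3 (0.264) and Icam1 (0.163) were not called, and Lcn2 and Cxcl9 were. With the TMM-scaled form of the covariate Lcn2 was called (edgeR adjusted p = 0.0226) and Cxcl9 was not (0.0735). Icam1 also missed the threshold under robust fitting (0.0546) and in limma-voom (0.0514). Icam1, like the members, was higher in deletion replicate 1, with 71.7 and 33.0 CPM in deletion replicates 1 and 2, against 11.1 and 14.3 CPM in control replicates 1 and 2. Lcn2, which also stands in the list of Nfkbiz-dependent genes, was the 1 of 4 tested there that passed.

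Of 8 listed non-canonical targets 4 were tested. The co-stimulatory ligand Icosl rose, with 14.3 and 14.3 CPM in the deletion libraries, against 3.02 and 3.85 CPM in the controls (log2 fold change 2.06 ± 0.24, edgeR adjusted p = 0.00951), and it was not called with the Y-linked covariate (2.06, adjusted p = 0.0631). The other 3, named after their values were seen, are the lymphoid homing chemokines Cxcl12, Cxcl13 and Ccl21a. Cxcl12 had 221 and 201 CPM in the deletion libraries, against 333 and 443 CPM in the controls (-0.88 ± 0.19, adjusted p = 0.0535). Cxcl13 and Ccl21a stood at -2.44 ± 0.69 and -0.74 ± 0.46 and did not pass (0.0954 and 0.385).

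Of 8311 genes outside the members with a mean of at least 10 CPM, those whose centred log2 CPM lay nearest to that of Nfkb2 over the 4 libraries were Rcan2, Steap4, Pdgfa, Klf6 and Icam1, at Euclidean distances of 0.15 to 0.45. Rcan2, the nearest, had 38.0 and 22.03 CPM in deletion replicates 1 and 2, against 5.68 and 6.39 CPM in control replicates 1 and 2. Among those nearest to Rela were C9, Cstf3, Etv6 and Fam20c, at distances of 0.066 to 0.077, and none of these 4 passed the test. The distances describe 4 libraries only.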

How the data were processed

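QuantSeq 3′ libraries, primed with oligo-dT, were sequenced on a NextSeq 550 (75 bp, single-end) and aligned with Bowtie2, per the labels' protocols. The authors deposited raw counts per Ensembl gene (mm10 and GRCm38 per the submitters' processing notes). Counter, strand setting and gene models were not given in the sources used here. Liver is the labelled source, while the library protocol speaks of hepatocyte RNA.

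Symbols and coordinates came from GENCODE M21 (GRCm38), which matched 52029 of 56953 rows. Groups were compared with the quasi-likelihood F test of edgeR 4.0.16 in R 4.3.3 (two-sided, genotype as the term, TMM, filterByExpr at a minimum count of 10 and total of 15, Benjamini-Hochberg over 14600 genes, called at an adjusted p under 0.05). CPM are TMM-scaled, log2 CPM use a prior count of 2, SE is |log2 fold change| divided by the root of the F statistic, and the fit was checked on simulated data. DESeq2 1.42.0 and limma-voom (limma 3.58.1) were alternatives. Members, lists and tests were chosen with earlier results of these data known. All members were named; of a list, up to 5 called genes with the largest change and direct partners of the members. Nfkbil1 and the marker genes named singly were chosen after their values were seen. One of the genes nearest to Rela in pattern is not reported here.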

Additional observations from a re-analysis of the deposited data

How the results depend on the processing

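The number of genes called was 959 in the main comparison, 1764 with library sizes alone, 2768 without a filter on low counts, 1568 with DESeq2, 283 with the Y-linked share as a covariate, 65 with its TMM-scaled form and 343 to 2081 with 1 library left out. The number of members called higher was 3, against 6 with library sizes alone, 6 without a filter, 1 with robust fitting, 1 with limma-voom, 1 with the Y-linked share, 0 with its TMM-scaled form and 1 to 5 with 1 library left out; the cause was not tested. Library sizes alone moved the median of all genes by 0.29 on the log2 scale. Members called lower stayed at 0 in all of these.

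Of 141 values of single members under the alternatives, 107 kept direction and side of the threshold, 12 lost the call, 12 gained it and 10 turned sign. Signs turned for Rel (-0.46 with the Y-linked share, -0.79 with its TMM-scaled form, -0.18 to 0.82 with 1 library left out), Nfkbia (-0.60, -0.86, and -0.37 to 0.51), Nfkbib (-0.026 and -0.20) and Rela (-0.057 with the TMM-scaled form). Among the other named genes, Ikbkb was at 0.24 with library sizes alone and -0.13 to 0.012 with 1 library left out, Btrc at -0.12 to 0.77, and Nfkbid at -0.35 with the TMM-scaled form.

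Replicate numbers do not pair the libraries by the labels, and same-numbered libraries deviated apart (r = -0.12 across genes). With a replicate block 390 genes and 2 members were called, and with crossed numbers, chosen after seeing the data, 1366 genes and 4 members. Relb and Nfkbie, with 25 to 37 control counts, are the members most limited by depth.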
